A study of Mus musculus with 26 samples.

Results

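The lysyl oxidase family of the mouse is made up of Lox, Loxl1, Loxl2, Loxl3 and Loxl4. These 5 genes were picked by name from the 54532 gene identifiers of the 26 aortic RNA-seq libraries, and all 5 were measured in all 26 libraries. The enzymes need copper and oxidise the amino group of lysine residues in tropoelastin and collagen, and the aldehydes that result form the covalent cross-links of elastic fibres and collagen fibrils. Lox and Loxl1 are secreted with a propeptide that is cut off outside the cell, whereas Loxl2, Loxl3 and Loxl4 carry scavenger receptor cysteine-rich domains. In mice, loss of Lox leads to fragmented elastic lamellae and aortic aneurysm, which makes the family a point of interest in aortas with a fibrillin-1 mutation.

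The libraries come from aortas of male mice, some heterozygous for the Fbn1 allele C1041G, a widely used model of Marfan syndrome, the others their wild-type (WT) littermates. Untreated mice formed 4 groups of 4 libraries: C1041G/+ ascending aorta, WT ascending aorta, C1041G/+ descending aorta and WT descending aorta. A separate experiment used the ascending aorta of mice that all carried C1041G/+, with 5 libraries after AGT-ASO, an antisense oligonucleotide against angiotensinogen mRNA, and 5 after a control ASO. The libraries held 17171652 to 28554356 counts each. The labels give neither the ages of the mice nor, for the antisense groups, the dose or its duration. The numbers 1 to 8 recur in both regions, and libraries of the same number were treated as 1 mouse: odd numbers are WT and even numbers C1041G/+. Replicates are separate libraries by their labels, and the p-values measure only the spread between these libraries.

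Of 8 marker lists, 9 smooth muscle genes had the highest score, the mean log2 CPM of a list, in every group, at 9.44 to 9.88 in untreated ascending libraries. CPM is a count scaled to the library's total after TMM normalisation. Several marker lists followed the region, among them those of 2 neighbouring tissues. The score of 12 heart muscle markers was 2.42 to 5.57 in untreated ascending libraries, against -1.38 to -0.46 in descending ones. That of 8 mesothelial markers was 4.94 to 5.83 in ascending libraries, against -0.37 to 1.38 in descending ones. That of 14 cartilage markers was -0.06 to 2.74 in untreated ascending libraries, against -0.69 to -0.07 in descending ones. The adipocyte score, ascending minus descending, differed by -4.41 to -0.31 in C1041G/+ mice and by -1.94 to -0.75 in WT mice. In bulk tissue, fewer cells of a type and less RNA per cell cannot be told apart.

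By GENCODE M21 on GRCm38, the build called mm10 by the authors, Lox (ENSMUSG00000024529) lies at chr18:52516067-52529867 on the minus strand. Loxl1 (ENSMUSG00000032334) lies at chr9:58287738-58313186 on the minus strand, and Loxl2 (ENSMUSG00000034205) at chr14:69609068-69695834 on the plus strand. Loxl3 (ENSMUSG00000000693) lies at chr6:83034173-83052562 on the plus strand, and Loxl4 (ENSMUSG00000025185) at chr19:42593982-42612813 on the minus strand. The members are thus unlinked, each on a chromosome of its own.

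The exons of Loxl3 share 535 bases with Htra2, a gene for a mitochondrial protease on the opposite strand. Htra2 had 10792 counts over the 26 libraries, and with the strand setting of the counting unknown, the values of Loxl3 carry that uncertainty.

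The stretch of 30 coding bases that is most alike in Loxl1, Loxl2, Loxl3 and Loxl4 is printed here. It was picked as the most alike of all aligned stretches of that length, so it does not measure the likeness of the genes elsewhere. Bases that are the same in all 4 genes are in capitals, 24 of the 30, and each line reads 5′ to 3′ on the strand of the gene.
Loxl1, chr9:58293639-58293668, minus strand: AAGGTaGCcGAGGGaCACAAgGCcAGcTTC
Loxl2, chr14:69689086-69689115, plus strand: AAGGTgGCtGAGGGcCACAAgGCcAGcTTC
Loxl3, chr6:83050174-83050203, plus strand: AAGGTgGCtGAGGGcCACAAaGCtAGtTTC
Loxl4, chr19:42598729-42598758, minus strand: AAGGTgGCcGAGGGaCACAAgGCcAGcTTC

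Each stretch lies within 1 exon. Over their aligned coding sequences, Loxl2, Loxl3 and Loxl4 were 60.9% to 62.0% identical to each other, and Loxl1 was 44.8% to 48.6% identical to them. The longest run of bases shared by any pair of these transcripts was 28 bases, between Loxl1 and Loxl2.

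Loxl1 and Lox made up most of the family's RNA in every library. Per kilobase of exon, Loxl1 was the highest member and Lox the next in 26 of 26 libraries, and Loxl4 was the lowest in 26 of 26. Loxl3 lay above Loxl2 in 25 of them. In C1041G/+ ascending aorta the levels were 160 ± 18.4 CPM per kb for Loxl1, 99.7 ± 32.3 for Lox, 14.9 ± 1.44 for Loxl3, 11.8 ± 1.24 for Loxl2 and 2.48 ± 0.185 for Loxl4 (SD, n = 4). In WT ascending aorta the same quantity was 130 ± 18.2 for Loxl1, 75.0 ± 13.8 for Lox, 13.9 ± 1.55 for Loxl3, 10.6 ± 3.10 for Loxl2 and 2.38 ± 0.344 for Loxl4. The order of the members was thus the same in mutant and WT ascending aorta. Loxl4 rested on the fewest reads, between 76 and 246 counts per library.

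**Figure D1:**
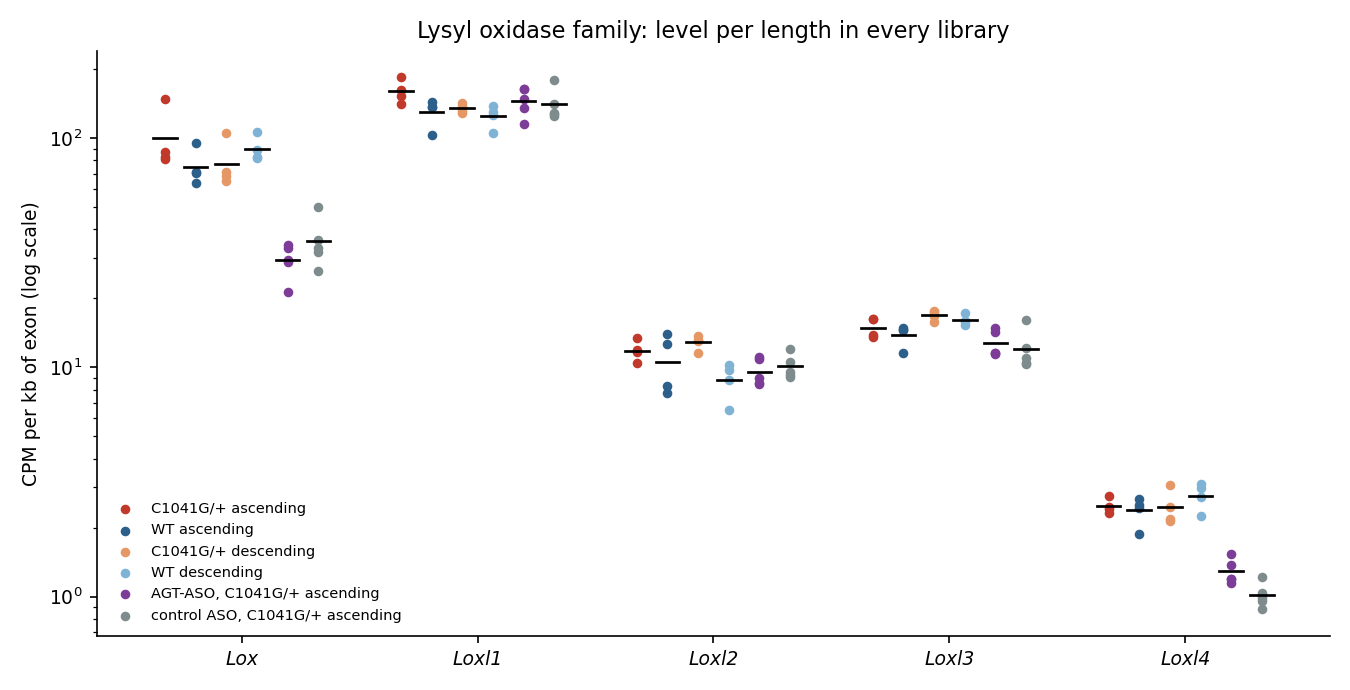
Level of each family member in every library, in CPM per kb of exon on a log scale, with a bar at the mean of each group. Loxl1 and Lox lie above Loxl2, Loxl3 and Loxl4 in all 26 libraries, and Lox and Loxl4 are lowest in both antisense groups.

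Lox, the founding member and the main cross-linking enzyme of the aortic wall, showed the clearest pattern. Its regional difference ran in opposite directions in the 2 genotypes. In the C1041G/+ mice 2, 4, 6 and 8 it had 708, 395, 389 and 415 CPM in ascending aorta, against 503, 311, 326 and 339 CPM in descending aorta. In the WT mice 1, 3, 5 and 7 it had 454, 303, 340 and 336 CPM in ascending aorta, against 509, 389, 422 and 397 CPM in descending aorta. Within a mouse, Lox was higher in ascending aorta in 4 of 4 C1041G/+ mice and in 0 of 4 WT mice. The groups themselves overlapped, since mouse 2 was the highest of the mutant mice in both regions and mouse 1 the highest of the WT mice in both.

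**Figure D2:**
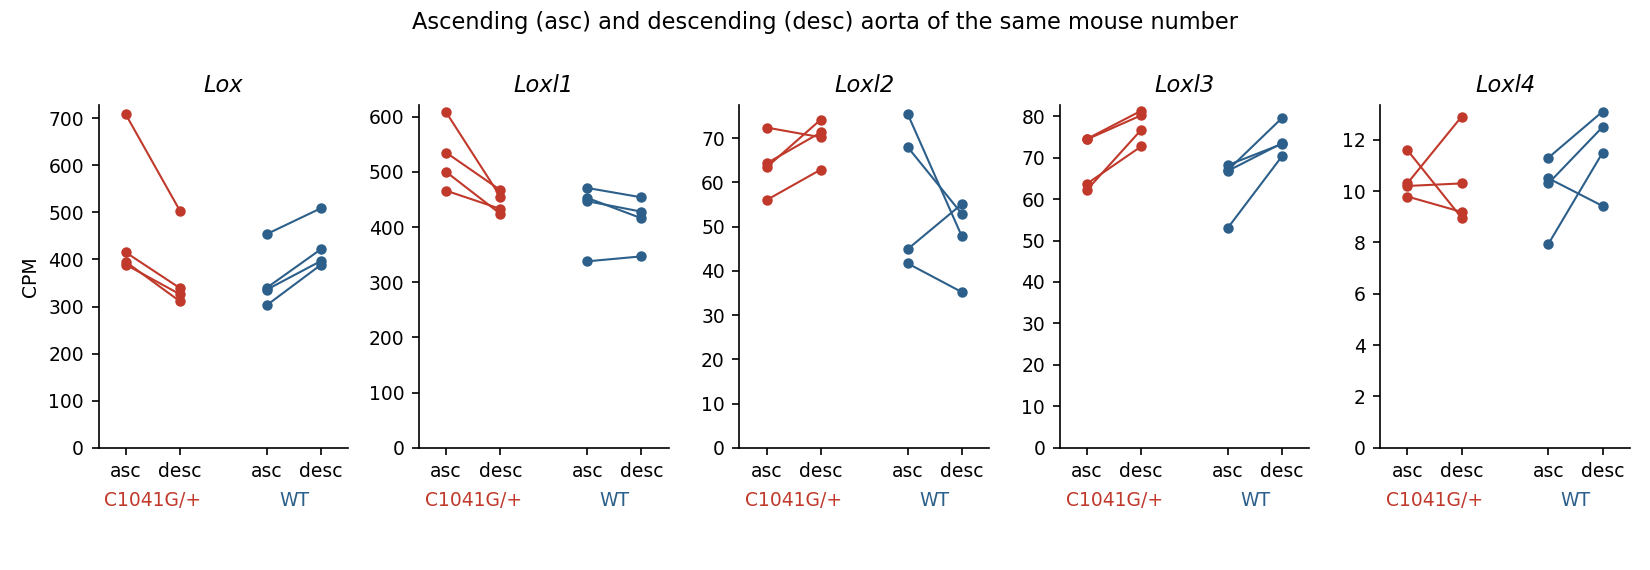
CPM of each family member in ascending (asc) and descending (desc) aorta, with a line joining the libraries of 1 mouse number. The lines of Lox fall from ascending to descending aorta in all 4 C1041G/+ mice and climb in all 4 WT mice, whereas those of Loxl3 climb in all 8.

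The mouse number was used as a block in the edgeR quasi-likelihood fit of region, so that each mouse is compared with itself. This choice rested on the likeness of same-number libraries across all genes, given with the processing, and not on the values of Lox. Changes are given as log2 fold changes, ascending minus descending, with their SE, and p-values are Benjamini-Hochberg adjusted over 15645 genes with a threshold of 0.05. In C1041G/+ mice Lox was higher in ascending aorta by 0.35 ± 0.07 (adjusted p = 0.0023), a ratio of 1.27. In WT mice Lox was lower in ascending aorta, at -0.27 ± 0.07 on the same scale (adjusted p = 0.012), a ratio of 0.83. The difference between these regional differences, the interaction of genotype and region, was 0.61 ± 0.09 (adjusted p = 0.023). Lox ranked 9 by p among the 15645 genes, and 13 genes, or 0.0831%, passed the interaction test. Among the family, 1 of 5 members passed it. Before adjustment 2 of 5 were under 0.05, Lox and Loxl2, where 8.92% of the genes tested were.

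Few genes showed such a reversal in the region tests. Region passed the test in both genotypes for 1530 genes, and in 6 of these, or 0.0384% of the genes tested, the sign was opposite in the 2 genotypes. They were Lox, Msc, Serpini1, Psmd8, Ednra and Cilp2, named because they were so few and after their values were seen. Counting mice without a model, 118 genes, or 0.754%, differed by region with 1 sign in all 4 mutant and the other in all 4 WT mice. Of the genes tested, 64, or 0.409%, were higher in ascending aorta in all 4 mutant mice and lower in all 4 WT mice. Random signs, independent between mice, would give shares close to these 2 percentages, and the counts were not tested against chance. Without the block the interaction of Lox was 0.62 ± 0.28 (adjusted p = 0.95). With 1 library left out it stayed between 0.56 and 0.65 and passed in 6 of 16 fits. It was lost, at adjusted p of 0.057 to 0.14, without either library of mouse 2, 4, 6 or 8 or of WT mouse 5. With the block, a library whose partner is left out adds nothing to the comparison of regions. The 16 fits are thus not 16 separate checks.

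The marker levels of the libraries are set beside the reversal of Lox. Ascending minus descending, the heart muscle score differed by 2.89 to 5.46 in C1041G/+ mice and by 3.32 to 6.44 in WT mice. The smooth muscle score differed by -0.01 to 0.28 in C1041G/+ mice and by -0.18 to 0.20 in WT mice. The fibroblast score differed by -0.11 to 0.17 in C1041G/+ mice and by -0.23 to 0.95 in WT mice. These ranges overlap, and 0 of the 12 heart muscle, 0 of the 9 smooth muscle and 0 of the 10 fibroblast markers passed the edgeR interaction test or were called by DESeq2. Before adjustment 3 of the 12 heart muscle, 3 of the 9 smooth muscle and 1 of the 10 fibroblast markers were under 0.05 in edgeR, where 8.92% of all genes were. Of the 8 endothelial markers 0 passed in edgeR, with 1 under 0.05 before adjustment, and DESeq2 called 1. The part of these markers in the reversal was not tested. No gene of these lists was at 0 in any untreated group.

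Elastin, the main substrate of Lox in the aortic media, was lower in ascending than in descending aorta of WT mice. Eln had 4591 ± 1202 CPM in ascending and 6173 ± 1945 CPM in descending aorta of WT mice (SD, n = 4 each), a log2 fold change of -0.41 ± 0.09 (adjusted p = 0.0044). In C1041G/+ mice Eln had 4889 ± 949 CPM in ascending and 4534 ± 777 CPM in descending aorta (0.11 ± 0.09, adjusted p = 0.51). Its interaction of 0.51 ± 0.12 had an adjusted p of 0.17, above the threshold that Lox passed, and with DESeq2 it passed (adjusted p = 4.2e-05). Without the block the WT difference of Eln did not pass (adjusted p = 0.31). Fbn1, the mutated gene, passed in none of the 6 comparisons, and its interaction was -0.28 ± 0.12 (adjusted p = 0.53). Its count does not separate the C1041G allele from the WT allele.

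Loxl1, which is tied to the renewal of elastic fibres through fibulin-5, was higher in ascending aorta of C1041G/+ mice. In mice 2, 4, 6 and 8 it had 608, 535, 466 and 500 CPM in ascending aorta, against 455, 467, 433 and 424 CPM in descending aorta. The WT mice 1, 3, 5 and 7 had 453, 338, 471 and 447 CPM in ascending aorta, against 416, 347, 454 and 428 CPM in descending aorta. Loxl1 was higher in ascending aorta in 4 of 4 C1041G/+ mice and in 3 of 4 WT mice, and the C1041G/+ groups overlapped only through the 466 CPM of ascending mouse 6 and the 467 CPM of descending mouse 4. The log2 fold change was 0.24 ± 0.07 in C1041G/+ mice (adjusted p = 0.027) and 0.05 ± 0.07 in WT mice (adjusted p = 0.69). The interaction of 0.19 ± 0.10 did not pass (adjusted p = 0.62), so no difference between the genotypes was shown. Leaving out either library of mouse 2, 4 or 8 ended the call in C1041G/+ mice, with values of 0.18 to 0.29 over all such fits.

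Loxl3, a member with roles in palate and spine development in mice, was lower in ascending than in descending aorta in all 8 mice. Mice 2, 4, 6 and 8 had 74.5, 74.4, 63.7 and 62.2 CPM in ascending aorta, against 81.3, 80.2, 72.7 and 76.7 CPM in descending aorta. Mice 1, 3, 5 and 7 had 67.0, 53.1, 68.2 and 66.8 CPM in ascending aorta, against 79.6, 70.4, 73.3 and 73.5 CPM in descending aorta. The WT regions lay apart for Loxl3 alone of the 5 members, and for 14.6% of the genes tested, whereas the C1041G/+ regions overlapped for all 5 members and lay apart for 14.5% of the genes. The log2 fold change was -0.18 ± 0.07 in C1041G/+ mice (adjusted p = 0.081) and -0.22 ± 0.07 in WT mice (adjusted p = 0.032). The interaction was 0.04 ± 0.09 (adjusted p = 0.93), with an interval of 2 SE from -0.14 to 0.22. In WT mice the call was lost without either library of mouse 1 or 3, with DESeq2 (-0.22, adjusted p = 0.068) and without a filter on low counts (adjusted p = 0.061).

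Loxl2, which also acts on collagen IV of basement membranes, and Loxl4, the least abundant member, passed no test of region. Loxl2 had 72.4, 64.3, 63.4 and 56.0 CPM in ascending aorta of mice 2, 4, 6 and 8, against 70.2, 71.3, 74.2 and 62.9 CPM in descending aorta. In WT mice 1, 3, 5 and 7 it had 44.9, 41.7, 75.5 and 68.0 CPM in ascending aorta, against 55.1, 35.2, 47.8 and 52.9 CPM in descending aorta. The WT ascending libraries fell into 2 low and 2 high values, and mouse 1 ran against the other WT mice. The log2 fold change was -0.12 ± 0.11 in C1041G/+ mice (adjusted p = 0.57) and 0.25 ± 0.12 in WT mice (adjusted p = 0.20). Without either library of mouse 1 the WT difference was 0.43 and passed. With all libraries the interaction of Loxl2 was -0.37 ± 0.16 and did not pass (adjusted p = 0.54). With 1 library left out that interaction lay between -0.55 and -0.24 and did not pass, at adjusted p of 0.070 or more. Loxl4 lay between 9.79 and 11.6 CPM in C1041G/+ ascending aorta and between 8.96 and 12.9 CPM in C1041G/+ descending aorta. In WT mice it lay between 7.94 and 11.3 CPM in ascending aorta and between 9.42 and 13.1 CPM in descending aorta, and all 4 ranges overlapped. Its log2 fold change was 0.03 ± 0.13 in C1041G/+ mice (adjusted p = 0.93) and -0.21 ± 0.13 in WT mice (adjusted p = 0.34), with an interaction of 0.24 ± 0.19 (adjusted p = 0.76).

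By region, 2 of 5 members passed in C1041G/+ mice, Lox and Loxl1, both higher in ascending aorta, where 14.8% of the genes tested passed and 9.05% were higher. In WT mice 2 of 5 passed, Lox and Loxl3, both lower in ascending aorta, where 15.5% of the genes tested passed and 5.48% were lower. Region moved the neighbouring tissues at the same time: 11 of 12 heart muscle and 8 of 8 mesothelial markers were higher in ascending aorta in each genotype. Of 12 tested cartilage markers 6 were higher in C1041G/+ mice and 9 in WT mice. Of 9 adipocyte markers 2 were lower in each genotype. Of 8 endothelial markers 2 were higher and 2 lower in C1041G/+ mice, and 2 were higher and 5 lower in WT mice. Of 10 fibroblast markers 1 was higher and 1 lower in C1041G/+ mice, and 4 were higher and 0 lower in WT mice. The part of these markers in the regional values of Loxl1 and Loxl3 was not tested. No region call of the family remained without the block, where Lox was 0.37 in C1041G/+ mice (adjusted p = 0.34) and -0.26 in WT mice (adjusted p = 0.54). Without either library of mouse 5, Lox in WT mice missed the threshold (-0.24, adjusted p = 0.065 and 0.067).

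Set against WT aorta of the same region, no member passed in C1041G/+ aorta. In ascending aorta 0 of 5 members passed the edgeR test, where 342 genes, or 2.19%, passed, and 0 passed with DESeq2. Lox averaged 477 ± 154 CPM in C1041G/+ and 358 ± 66.0 CPM in WT ascending aorta (0.40 ± 0.20, adjusted p = 0.34). Loxl1 averaged 527 ± 60.8 CPM in C1041G/+ and 427 ± 60.1 CPM in WT ascending aorta (SD, n = 4 each; 0.29 ± 0.11, adjusted p = 0.18). The groups overlapped for all 5 members, whereas they lay apart for 9.58% of the genes tested. For Loxl1 the unadjusted p of the edgeR test was 0.015, the 1 member under 0.05 before adjustment, where 16.2% of the genes tested were.

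The size of the Lox difference in ascending aorta leaned on mouse 2. Without its ascending library the log2 fold change was 0.14, and without the mouse in either region, a fit chosen after the values were seen, it was 0.15 (adjusted p = 0.72). The heart muscle score averaged 3.12 ± 0.91 in C1041G/+ and 4.13 ± 1.33 in WT ascending aorta, and with that score as a covariate Lox was 0.21 (adjusted p = 0.78). Loxl2, Loxl3 and Loxl4 differed in ascending aorta by 0.14 ± 0.17, 0.10 ± 0.09 and 0.05 ± 0.14 (adjusted p = 0.73, 0.62 and 0.89).

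In descending aorta 0 of 5 members passed the edgeR test, where 189 genes, or 1.21%, passed, and 0 passed with DESeq2. Loxl2 was the member furthest from WT. It averaged 69.7 ± 4.82 CPM in C1041G/+ and 47.7 ± 8.89 CPM in WT descending aorta, and every C1041G/+ library lay above every WT library, as for 7.21% of the genes tested the groups lay apart. Its log2 fold change of 0.54 ± 0.17 had an unadjusted p of 0.0066 and an adjusted p of 0.19, and it was the 1 member under 0.05 before adjustment, where 10.8% of the genes were. Lox averaged 370 ± 89.5 CPM in C1041G/+ and 429 ± 54.8 CPM in WT descending aorta (-0.22 ± 0.20, adjusted p = 0.78). Loxl1, Loxl3 and Loxl4 differed by 0.11 ± 0.11, 0.06 ± 0.09 and -0.17 ± 0.14 (adjusted p = 0.82, 0.89 and 0.75).

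**Figure D3:**
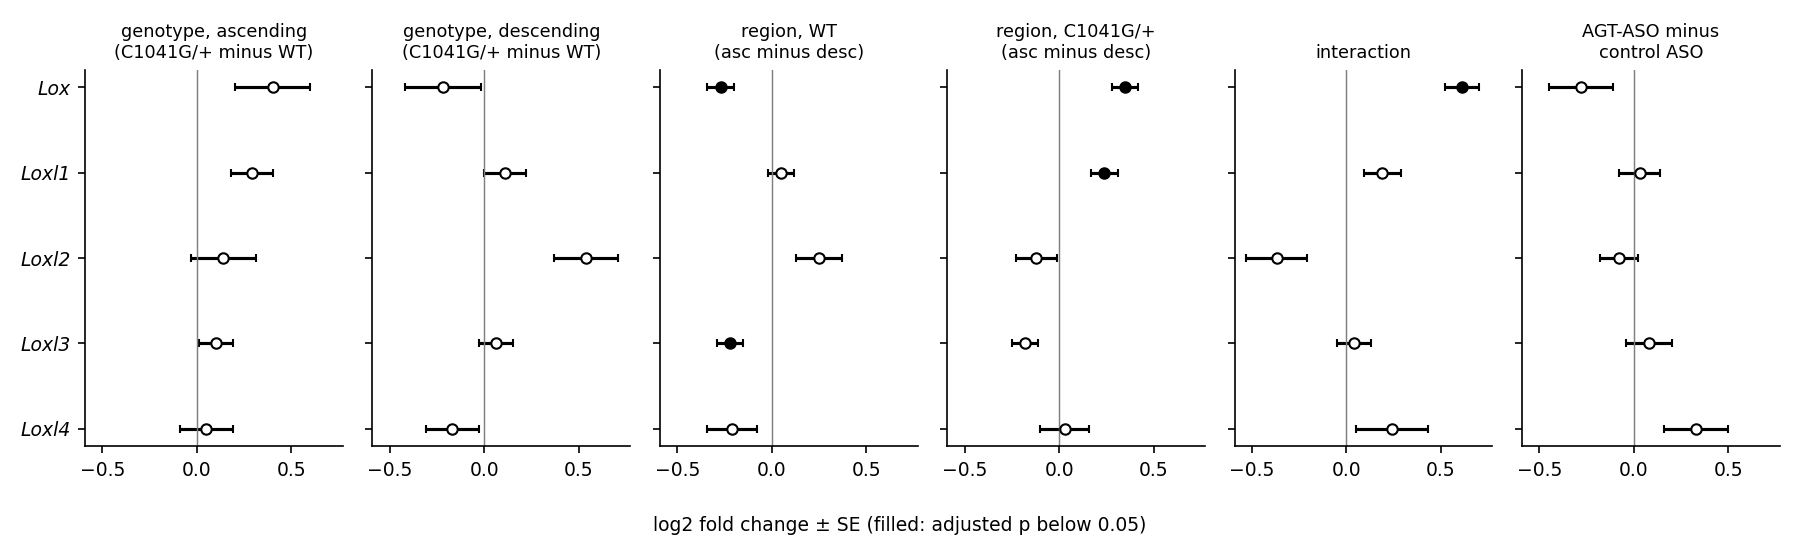
Log2 fold change of each member in the 6 comparisons, with bars of 1 SE and filled points where the adjusted p was below 0.05. Lox is filled in both region panels, on opposite sides of 0, and in the interaction, and no point is filled in the genotype or antisense panels.

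AGT-ASO, set against the control ASO, changed no member past the threshold. In the edgeR fit of the 10 antisense libraries 0 of 5 members passed, where 10 of 14981 genes, or 0.0668%, passed, and 0 passed with DESeq2. No member was under 0.05 before adjustment, where 12.7% of the genes were. Lox had 158, 102, 163, 141 and 137 CPM after AGT-ASO, against 240, 158, 126, 171 and 153 CPM after the control ASO. The groups overlapped, and 1 control library stood highest (-0.28 ± 0.17, adjusted p = 0.54).

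Loxl4 had 4.83 to 6.45 CPM after AGT-ASO (median 5.03), against 3.72 to 5.12 CPM after the control ASO (median 4.16). Most AGT-ASO libraries were higher, with overlap through 1 control library (0.33 ± 0.17, adjusted p = 0.44). Loxl1 averaged 478 ± 67.7 CPM after AGT-ASO and 463 ± 76.2 CPM after the control ASO (SD, n = 5 each). Loxl2 averaged 51.8 ± 7.01 and Loxl3 58.7 ± 7.67 CPM after AGT-ASO, against 54.5 ± 6.53 and 55.3 ± 11.2 CPM after the control ASO. Their log2 fold changes were 0.03 ± 0.11 for Loxl1, -0.08 ± 0.10 for Loxl2 and 0.08 ± 0.12 for Loxl3 (adjusted p = 0.93, 0.78 and 0.84). An interval of 2 SE reached from -0.63 to 0.06 for Lox and from -0.01 to 0.68 for Loxl4, so changes of that size are not excluded by these libraries. The heart muscle score averaged 3.74 ± 0.85 after AGT-ASO and 5.19 ± 0.86 after the control ASO. With that score as a covariate Lox was -0.54, Loxl1 -0.25, Loxl2 0.04 and Loxl3 -0.22, so the sign of Loxl1, Loxl2 and Loxl3 turned, and no member passed.

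Lox and Loxl4 stood lower in the antisense experiment than in the untreated one. In ascending aorta of C1041G/+ mice Lox averaged 170 ± 42.6 CPM after the control ASO (SD, n = 5) and 477 ± 154 CPM without treatment (SD, n = 4), a ratio of 0.36. Loxl4 averaged 4.29 ± 0.526 CPM after the control ASO and 10.5 ± 0.781 CPM without treatment, a ratio of 0.41. For both genes the groups lay apart, as they did for 28.1% of 14135 genes of at least 1 CPM. A mean lower by at least the ratio of Lox was found in 1.49% of these genes, and by at least that of Loxl4 in 2.70%. Loxl1, Loxl2 and Loxl3 had ratios of 0.88, 0.85 and 0.80, and their groups overlapped. No test was made, since treatment and experiment cannot be told apart. Other levels differed between the experiments too. The endothelial score averaged 5.14 ± 0.19 after the control ASO and 6.90 ± 0.24 without treatment. The macrophage score was 3.84 to 4.43 after the control ASO and 5.41 to 5.76 without treatment. The heart muscle score averaged 5.19 ± 0.86 after the control ASO and 3.12 ± 0.91 without treatment. Eln, encoding the elastin that the family cross-links, averaged 2642 ± 309 CPM after the control ASO and 4889 ± 949 CPM without treatment, and its groups lay apart. The part of these differences in the values of Lox and Loxl4 was not tested.

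With the lower level of Lox, the balance of the 2 main enzymes differed too. Lox made up 14.8 ± 2.01% of the summed CPM per kb of the family after AGT-ASO and 17.7 ± 1.91% after the control ASO, and 31.4% to 37.1% on average in the untreated groups. Loxl1 made up 73.1 ± 2.28% after AGT-ASO and 70.6 ± 1.83% after the control ASO, and 51.5% to 56.0% in the untreated groups. The ratio of Lox to Loxl1 per kb was 0.176 to 0.246 over the AGT-ASO libraries, 0.204 to 0.283 over the control ASO libraries and at least 0.460 in every untreated library. All 10 antisense libraries thus lay below all 16 untreated ones in this ratio, whichever oligonucleotide was given. The shares and the ratio restate the lower Lox level beside a Loxl1 level that overlapped, and are not a separate result. Between control ASO and untreated C1041G/+ ascending libraries, 28.1% of genes of at least 1 CPM lay apart.

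**Figure D4:**
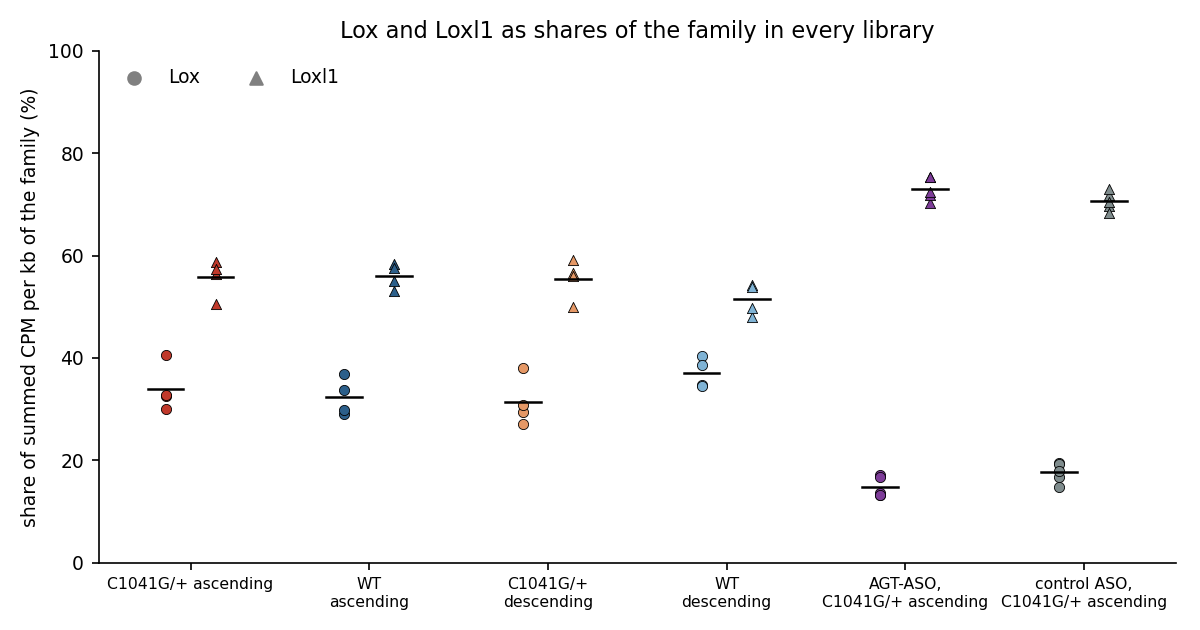
Share of Lox (circles) and Loxl1 (triangles) in the summed CPM per kb of the family, in percent, in every library, with a bar at the mean. Lox lies at 13.3% to 19.4% in the antisense libraries and at 27.2% to 40.6% in the untreated libraries.

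Across the 6 groups, Lox ran from 477 CPM in untreated C1041G/+ ascending aorta through 429 in WT descending, 370 in C1041G/+ descending and 358 in WT ascending aorta to 170 after the control ASO and 140 after AGT-ASO. Neighbours in that order overlapped in their libraries, except WT ascending aorta and the control ASO group. For Loxl4 the order was WT descending aorta at 11.6 CPM, C1041G/+ ascending at 10.5, C1041G/+ descending at 10.3, WT ascending, AGT-ASO at 5.42 and the control ASO at 4.29, with a gap only between WT ascending aorta and AGT-ASO. For Loxl1, Loxl2 and Loxl3 all neighbours in the order overlapped. Loxl1 spanned group means of 411 CPM in WT descending to 527 CPM in C1041G/+ ascending aorta. Loxl2 spanned 47.7 CPM in WT descending to 69.7 CPM in C1041G/+ descending aorta, and Loxl3 spanned 55.3 CPM after the control ASO to 77.7 CPM in C1041G/+ descending aorta.

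The members did not move as 1 group over the 16 untreated libraries, which come from 8 mice. The Pearson correlation of log2 CPM was 0.66 between Loxl1 and Loxl2 and 0.53 between Lox and Loxl1. It was 0.04 between Lox and Loxl2 and -0.01 between Loxl2 and Loxl4. Among 10685 protein-coding genes of at least 5 CPM, the genes most like Lox were Tmem214, Atp6v1e1 and E2f4 (r of 0.82, 0.81 and 0.80). Those most like Loxl1 included Plaur and Qsox1, each at 0.88. Capg, Cd248 and Tifa were most like Loxl2 (0.85, 0.83 and 0.82), and Cd248 encodes endosialin, a protein of perivascular and mesenchymal cells. Dbn1, Ehd2 and Cpne2 were most like Loxl3 (0.88, 0.86 and 0.86), and Thtpa, Slc25a17 and Necap1 most like Loxl4 (0.80, 0.74 and 0.71). Libraries of 1 mouse and of 1 region share variation, and these values are descriptions of the highest among many genes.

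Of 7 tested genes for propeptide cleavage and its enhancers, 2 rose and 1 fell in C1041G/+ against WT ascending aorta, where 2.19% of all genes passed. Their median log2 fold change was 0.19, against -0.01 for all genes. Fn1, encoding fibronectin, which binds Lox and its protease, had 1961 ± 47.8 CPM in C1041G/+ and 1029 ± 154 CPM in WT ascending aorta (0.92 ± 0.12, adjusted p = 0.00052). Postn, encoding periostin, which brings BMP1 to the matrix where it cuts the propeptide of Lox, rose by 0.64 ± 0.11 (adjusted p = 0.0045). Pcolce2, encoding an enhancer of procollagen cleavage, fell by 0.50 on the log2 scale (adjusted p = 0.011). In descending aorta, where 1.21% of all genes passed, 1 of the 7 rose, Fn1, by 0.59 ± 0.12 (adjusted p = 0.019). That call was lost with 4 of the 14 alternatives, namely without C1041G/+ library 6 or 8 or WT library 3 or 7, at adjusted p up to 0.075.

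Of 14 elastic fibre genes, 3 fell and 0 rose in C1041G/+ against WT ascending aorta, the microfibril-associated Mfap4 (-0.71), Mfap5 (-0.66) and Ltbp4 (-0.41), at adjusted p of 0.0015, 0.0019 and 0.022, beside the 2.19% of all genes that passed. The fibroblast score of the same libraries was 8.05 to 8.14 in C1041G/+ and 8.19 to 8.37 in WT ascending aorta, so the groups lay apart. Of the 10 fibroblast markers 1 rose and 1 fell, and their median log2 fold change was -0.34. The macrophage score was 5.41 to 5.76 in C1041G/+ and 5.11 to 5.34 in WT ascending aorta, with 0 of the 9 markers called by edgeR or DESeq2 and 2 under 0.05 before adjustment. The part of both scores in these calls was not tested. In descending aorta, where 1.21% of all genes passed, 2 of the 14 elastic fibre genes fell, Mfap4 (-1.33, adjusted p = 2e-06) and Mfap5 (-0.53, adjusted p = 0.012). Of 14 fibrillar collagen and fibril regulator genes, 2 fell in ascending aorta, Prelp (-0.77, adjusted p = 0.0014) and Col11a2 (-1.66, adjusted p = 0.048), and 0 passed the edgeR test in descending aorta, where 3 were under 0.05 before adjustment and 1 passed with DESeq2. The cartilage score, to which Col11a2 belongs, averaged 0.89 ± 0.64 in C1041G/+ and 1.89 ± 0.75 in WT ascending aorta. Among 18 collagen hydroxylation and folding genes, P3h2, a prolyl 3-hydroxylase, rose in ascending (0.47, adjusted p = 0.046) and in descending aorta (0.57, adjusted p = 0.016), and Colgalt2 fell in ascending aorta (-1.71, adjusted p = 0.048). In ascending aorta the calls of Col11a2, P3h2 and Colgalt2 were lost in 11 of 16 alternatives each, with adjusted p up to 0.26, 0.20 and 0.44, and that of Ltbp4 in 7 of 16. In descending aorta that of P3h2 was lost in 4 of 14. The call of Mfap4 held in every alternative run.

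In ascending aorta, where 2.19% of all genes passed, 3 of 19 inducers and targets around the family rose in C1041G/+ against WT and 0 fell. They included Ccn2, encoding connective tissue growth factor (0.83 ± 0.14, adjusted p = 0.0037), and Tgfb3, encoding a transforming growth factor beta (0.64 ± 0.11, adjusted p = 0.0048). In descending aorta 0 of the 19 passed the edgeR test and 1 passed with DESeq2. Before adjustment 6 of the 19 were under 0.05 there, where 10.8% of all genes were. Of 9 copper supply genes, which deliver the cofactor of the enzymes, 0 passed the edgeR test in ascending and 0 in descending aorta, and 0 of 2 tested genes for other copper amine oxidases passed in either. Before adjustment 1 copper supply gene was under 0.05 in ascending aorta, where 16.2% of all genes were, and DESeq2 called 0 genes of both lists.

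By region, 6 elastic fibre genes were higher and 3 lower in ascending than in descending aorta of C1041G/+ mice, where 14.8% of all genes passed. In WT mice 7 were higher and 2 lower, where 15.5% of all genes passed. Ltbp2, encoding a protein of microfibrils, was higher by 1.15 in each genotype (adjusted p = 1.3e-06 in C1041G/+ mice and 1.1e-06 in WT mice). Mfap4 was higher by 1.05 in C1041G/+ mice (adjusted p = 3.9e-07) and by 0.42 in WT mice (adjusted p = 0.0016). Fbln5, encoding fibulin-5, was higher by 0.83 in C1041G/+ mice (adjusted p = 7.8e-06) and by 0.29 in WT mice (adjusted p = 0.026). Of 7 tested propeptide genes 2 were higher and 3 lower in C1041G/+ mice, and 1 was higher and 2 lower in WT mice. Among them, Pcolce2 was lower in ascending aorta of C1041G/+ mice (-1.06, adjusted p = 1.1e-06) and of WT mice (-0.92, adjusted p = 3.3e-06). Postn was higher in C1041G/+ mice (0.57, adjusted p = 0.00073). Tll1 was higher in C1041G/+ mice (2.47, adjusted p = 0.0064) and in WT mice (3.32, adjusted p = 0.0017). Of 9 tested copper supply genes 1 was higher and 2 lower in C1041G/+ mice, and 2 were higher and 1 lower in WT mice. Cp, the ceruloplasmin gene, was higher in C1041G/+ mice (0.58, adjusted p = 0.0057). Atp7a (0.37, adjusted p = 0.017) and Steap2 (0.36, adjusted p = 0.037) were higher in WT mice, calls lost in 6 and 7 of 14 alternatives. Sparc, in the copper supply list as a copper-binding matrix protein, was lower in C1041G/+ mice (-0.34, adjusted p = 0.015) and in WT mice (-0.61, adjusted p = 0.00018). The call of Sparc in C1041G/+ mice was lost in 7 of 14 alternatives, without either library of mouse 4, 6 or 8 and without the block, at adjusted p up to 0.12. Of the inducers and targets, 7 were higher and 2 lower in C1041G/+ mice, and 4 were higher and 1 lower in WT mice. Vegfa, encoding an endothelial growth factor, was lower in C1041G/+ mice (-1.06, adjusted p = 2.4e-06) and in WT mice (-0.51, adjusted p = 0.0014). Ccn2 was higher by 0.64 in C1041G/+ mice (adjusted p = 3.4e-05). Fibrillar collagen and fibril regulator genes were split, with 4 higher and 3 lower in C1041G/+ mice and 5 higher and 2 lower in WT mice. Of the collagen hydroxylation and folding genes, 2 were higher and 3 lower in C1041G/+ mice, and 1 was higher and 3 lower in WT mice. In the edgeR interaction test 0 genes of these lists passed, apart from Lox in the family itself. Before adjustment 5 of 14 elastic fibre genes and 6 of 19 inducers and targets were under 0.05, where 8.92% of all genes were. DESeq2 called 3 genes of the first list and 2 of the second. Under 0.05 before adjustment were also 2 of 7 propeptide, 2 of 9 copper supply, 3 of 14 fibrillar collagen and 4 of 18 collagen folding genes. In these lists DESeq2 called 1 propeptide gene and 1 fibrillar collagen gene.

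After AGT-ASO, against the control ASO, 1 of 9 copper supply genes and 1 of 19 inducers and targets fell, where 0.0668% of all genes passed. Cp, encoding the copper-carrying plasma protein ceruloplasmin, had 102 ± 10.7 CPM after AGT-ASO and 146 ± 13.1 CPM after the control ASO (-0.53 ± 0.08, adjusted p = 0.038). Vegfa had 24.4 ± 2.58 CPM after AGT-ASO and 35.0 ± 2.52 CPM after the control ASO (-0.53 ± 0.09, adjusted p = 0.038). Cp was lost in 8 and Vegfa in 9 of 15 alternatives, at adjusted p up to 0.23 and 0.28. Both calls were lost when the heart muscle score was added as a covariate. Of the 11 heart muscle markers tested 0 passed in edgeR and 2 in DESeq2, 9 were under 0.05 before adjustment in edgeR, and the median log2 fold change was -1.51. Their part in both calls was not tested. In the lists for elastic fibres, collagens, collagen folding and propeptide cleavage 0 genes passed the edgeR test. Before adjustment 4 elastic fibre genes and 4 collagen genes were under 0.05, where 12.7% of all genes were. DESeq2 called 1 elastic fibre gene and 0 collagen genes.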

How the data were processed

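The authors deposited raw counts per gene, 1 file for each of the 26 libraries. Per the submitters' processing notes, fastp trimmed the reads and STAR 2.6.1d mapped them to mm10. The counting tool was not given in the sources used here, nor were the strand setting and annotation release. Names came from GENCODE M21, which named 54409 of 54532 identifiers. Tests were two-sided quasi-likelihood F tests of the counts (edgeR 4.0.16, R 4.3.3), after TMM normalisation and filterByExpr by group, with robust dispersions. All 5 members passed the filter. Of the untreated libraries 15645 genes were tested, of the antisense libraries, fitted apart, 14981. Genotype was fitted on 4 group means without a block, since each mouse has 1 genotype, and region and interaction with the mouse number as a fixed block. The labels do not say what the number marks. After removal of group means, all 8 same-number pairs correlated across genes (r of 0.162 to 0.305, other pairs -0.033 on average). Removal of group means makes the other pairs of a genotype negative on average where same-number pairs are positive. The -0.033 is thus not separate evidence of pairing. For 6 of the 8 ascending libraries, the descending library most like it had the same number. The numbers were taken as pairs, and the region and interaction calls of the family rest on that choice. CPM used 1 TMM scale over all libraries, and log2 values a prior count of 0.5. Marker scores are mean log2 CPM of a list. Pathway lists give up to 4 called genes with the smallest p, together with Fbn1 and Eln, and some genes that this rule takes are left out here. The members and lists were chosen with earlier results of these data known. Alternatives used RLE and upper quartile factors, no count filter, DESeq2 1.42.0, limma 3.58.1 with a random block, subsets of libraries, a heart muscle covariate and each library left out. The procedures were tested on simulated data. Coding sequences of Loxl1 to Loxl4 were aligned with MAFFT 7.526.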

Additional observations from a re-analysis of the deposited data

Results flagged for a closer look

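Lox in the C1041G/+ ascending library of mouse 2 stood far above the other 3 of its group, at 708 CPM. The descending library of the same mouse, at 503 CPM, likewise stood far above the others of its group. Loxl3 in the WT ascending library of mouse 3 stood far below the other 3, at 53.1 CPM. Each was picked out because its gap to the nearest library exceeded the 95% limit of Dixon's test, over 40 sets of values examined. Chance flags about 1 in 20 sets.

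The genotype effect on Lox differed between the regions, by 0.61 on the log2 scale in the interaction test with the mouse number as a block.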

How the results depend on the processing

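No result of a member that had passed changed direction under any alternative. Several depended on the replicate block. Without it the interaction of Lox was 0.62 (adjusted p = 0.95, SE 0.28), and 0 of 5 members passed any comparison. Region in C1041G/+ mice then gave 0.37 for Lox and 0.25 for Loxl1 (adjusted p = 0.34 and 0.20), and region in WT mice -0.26 for Lox and -0.22 for Loxl3 (adjusted p = 0.54 and 0.14). With WT libraries alone and the block, 0 members passed for region: Lox was -0.27 and Loxl3 -0.23 (adjusted p = 0.063 and 0.095). With DESeq2, 1 member passed for region in WT mice, and Loxl3 was -0.22 (adjusted p = 0.068). Without a filter on low counts, Loxl3 was -0.22 (adjusted p = 0.061) and Loxl2 passed at 0.25 (adjusted p = 0.032) in WT mice. Under RLE and upper quartile factors every call of a member stayed.

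With 1 library left out, region in WT mice gave 1 to 2 called members, with Lox at -0.30 to -0.23, Loxl2 at 0.12 to 0.43 and Loxl3 at -0.26 to -0.16. Region in C1041G/+ mice gave 1 to 2, with Loxl1 at 0.18 to 0.29 and Lox, called in 8 of 8 fits, at 0.30 to 0.38. The interaction gave 0 to 1, with Lox at 0.56 to 0.65. In these fits with the block, leaving out either library of a mouse removes the same comparison, so they are not separate checks. A random replicate block for genotype called 0 members.

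Counts over all genes moved as well. Genotype in ascending aorta called 342 genes, 779 with DESeq2, 132 with the heart muscle covariate and 163 to 347 with 1 library left out. Genotype in descending aorta called 189 genes and 414 with DESeq2. Region without the block called 1552 in C1041G/+ mice against 2321 with it. The interaction called 13 genes, 428 without the filter, 100 with DESeq2, 1 without the block and 6 to 49 with 1 library left out. AGT-ASO called 10 genes, 147 without the filter, 289 with DESeq2, 22 with upper quartile factors and 0 to 180 with 1 library left out. Of 65 calls of named genes in the pathway lists, 40 held in every alternative and 25 were lost in at least 1. The causes were not tested. Loxl4, at 76 to 246 counts, was measured with the widest counting error of the family.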

Other observations

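Fbn2, encoding fibrillin-2, a fibrillin made mainly before birth, was near its limit of detection in descending aorta. It averaged 1.00 ± 0.481 CPM in ascending aorta of C1041G/+ mice and was listed at 0 in all 4 of their descending libraries. In WT mice it averaged 1.16 ± 0.447 CPM in ascending and 0.0124 ± 0.0249 CPM in descending aorta (SD, n = 4 each). Tll1, encoding a protease related to BMP1, averaged 3.07 ± 0.328 CPM in ascending and 0.587 ± 0.491 CPM in descending aorta of C1041G/+ mice. In WT mice it averaged 2.56 ± 0.315 CPM in ascending and 0.260 ± 0.240 CPM in descending aorta.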
